A study of Homo sapiens with 30 samples.

Results

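The human mitochondrial genome encodes 13 mRNAs, 2 rRNAs and 22 tRNAs, and all 37 genes whose symbol starts with MT- were taken as members, of 60483 gene records in each deposited table. Membership was read from the symbol, without a measured value. RNA was sequenced from tumoroids of PANC-1, a wild-type epithelial line grown from a pancreatic ductal carcinoma of a human, in 10 groups of 3 biological replicates. In hybrid tumoroids the PANC-1 cells were mixed with droplet-supported lipid bilayers (DSLBs), oil droplets coated with a lipid bilayer that serve as synthetic cells. The study asked how PANC-1 cells respond when such droplets present an immune ligand alone or together with another one.

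DSLB-free tumoroids held only PANC-1 cells, and plain DSLB hybrids held droplets without protein. In the PD-1 group the droplets presented PD-1, an inhibitory receptor of T cells that binds PD-L1. The other 7 groups presented PD-1 together with a further molecule. No group presented a protein without PD-1, so PD-1 cannot be told apart from any protein on the droplet. These were CD2, an adhesion receptor, CD27, a receptor of the TNF receptor family, CD40L, the ligand of CD40, CTLA4 and ICOS, which are an inhibitory and a costimulatory receptor, and LAG3 and TIGIT, which are inhibitory receptors. The presented proteins were recombinant ectodomains held by a polyhistidine tag, so no group contained immune cells, and all groups used the same cell line in a medium with penicillin, streptomycin and a low level of fetal bovine serum. The culture time before RNA harvest is not in the sample labels.

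Mitochondrial DNA is transcribed from both strands into long precursors, from which the tRNAs are cut out so that the rRNAs and mRNAs between them are released. The mRNAs encode subunits of the respiratory chain and of ATP synthase, the rRNAs build the mitochondrial ribosome, and the tRNAs decode the mRNAs. All other proteins of mitochondrial transcription, RNA processing and translation come from nuclear genes.

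The coordinates of all members are those of GENCODE v44 on GRCh38, the build to which the authors aligned their reads, and each gene's length equalled the length in the deposited tables. The members covered 92.7% of the 16569 bases of chrM, and none has an intron. The printed sequences are from the plus strand unless stated and show where members are short, adjoin each other or overlap. MT-TV lies directly between the small and the large rRNA gene, MT-RNR1 and MT-RNR2, and its 69 bases are in capitals at chrM:1572-1700.
MT-RNR1/MT-TV/MT-RNR2: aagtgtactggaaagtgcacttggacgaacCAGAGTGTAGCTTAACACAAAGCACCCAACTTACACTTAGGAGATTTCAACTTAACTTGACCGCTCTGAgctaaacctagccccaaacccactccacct
MT-TS2 at chrM:12207-12265 is the shortest tRNA gene and MT-TL1 at chrM:3230-3304 the longest.
MT-TS2: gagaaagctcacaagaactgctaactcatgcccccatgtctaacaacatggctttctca
MT-TL1: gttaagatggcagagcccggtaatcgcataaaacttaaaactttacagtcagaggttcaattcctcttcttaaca
MT-ATP8 and MT-ATP6, which encode subunits of ATP synthase, overlap on the same strand by 46 bases, in capitals at chrM:8507-8592, and MT-ND4L and MT-ND4, which encode subunits of complex I, overlap by 7 bases, in capitals at chrM:10730-10796.
MT-ATP8/MT-ATP6: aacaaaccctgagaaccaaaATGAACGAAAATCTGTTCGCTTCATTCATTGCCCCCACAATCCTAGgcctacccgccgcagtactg
MT-ND4L/MT-ND4: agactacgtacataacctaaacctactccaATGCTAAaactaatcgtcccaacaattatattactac
MT-ND6, a further subunit of complex I, is the one mRNA encoded on the minus strand, and its end faces the end of MT-ND5. At chrM:14119-14178 on the minus strand the last 30 bases of MT-ND6 are in capitals.
MT-ND6/MT-ND5: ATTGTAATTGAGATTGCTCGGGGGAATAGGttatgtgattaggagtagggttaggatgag
MT-ND6 held 35.6% G and 7.05% C on its own strand, whereas the other 12 mRNAs held 6.28 to 16.2% G and 29.5 to 36.0% C. Reads that fall in an overlap can be split between both genes by the counting, and the library kit was a directional one, which keeps the strand of the RNA. Whether the counting used the strand was not given in the sources read, and the part of antisense reads in the MT-ND6 values was not tested.

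The expected counts, which are estimates of reads per gene, summed to 21.9 to 60.5 M in each library, and the median of the libraries was 40.6 M. In 4 libraries the counts of nuclear genes differed from those of both other replicates over 2 times more than these differed from each other, and they were DSLB-free replicate 2, PD-1/LAG3 replicate 3, PD-1/CTLA4 replicate 2 and PD-1 replicate 1. Where edgeR called a member with or without these 4 libraries, both counts are given, and in the other comparisons both counts were 0. The PD-1/CD2 replicates all differed from each other, with a chi-square per gene of 20.8 to 34.6, so no library there met the rule. For PD-1 replicate 1 against the other PD-1 libraries the values were 12.3 and 9.20. In TPM, which scales counts by gene length and by depth, the markers listed for PANC-1 summed to 6588 to 9272. They were the keratins KRT8, KRT18, KRT19 and KRT7 and the mesenchymal gene VIM. Of the sum, VIM gave 2128 to 2983 TPM, and KRT7 gave only 7.94 to 16.38 TPM. Markers of T cells summed to 0.57 to 1.54 TPM, with CD3E and TRAC at 0 in all 30 libraries. Those of fibroblasts summed to 131.5 to 402.9 TPM, nearly all of it COL1A1.

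The tRNAs were almost invisible in these libraries. Of the 22 tRNA genes, 21 are shorter than the 75-nt reads and had an effective length of 0 in every table, so that no TPM could be formed for them. Over all 30 libraries 10 of them had no count, which allows up to 3 counts or 4.96e-06 to 1.37e-05% of a library, and 11 had 86 counts in all, with at most 6 in a library. MT-TL1, a leucine tRNA gene as long as a read, was counted in all 30 libraries and made up 93.9% of the 1418 tRNA counts. Its level was 116.5 to 959.7 TPM, a value set by an effective length of under 3 bases. The tRNAs together gave at most 0.00338% of the mitochondrial counts, and only MT-TL1 passed the filter on low counts, so statements on tRNAs rest on this gene.

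Per length, MT-CO1, which encodes the catalytic core of cytochrome c oxidase, was the mRNA with the highest level in 30 of 30 libraries. Its median level was 10242 TPM, and the other subunits of the same complex followed with 7560 TPM for MT-CO2 and 7171 TPM for MT-CO3. Of the complex I subunits, MT-ND4 stood at a median of 6147, MT-ND1 at 3947, MT-ND3 at 3606, MT-ND4L at 3461, MT-ND2 at 3238 and MT-ND5 at 1860 TPM. MT-CYB, the subunit of complex III, was at 3727 TPM, and the ATP synthase subunits were at 5884 TPM for MT-ATP6 and 3074 TPM for MT-ATP8. The ranges of neighbours in this order overlapped across libraries. MT-ND6 was far below them with a median of 38.8 TPM and a range of 16.02 to 91.5 TPM, and it was the lowest mRNA in all 30 libraries, with MT-ND5 the next lowest in all 30. The large rRNA, MT-RNR2, had a median of 9878 TPM and exceeded MT-CO1 in 11 of 30 libraries, while the small rRNA, MT-RNR1, had a median of 1925 TPM.

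**Figure D1:**
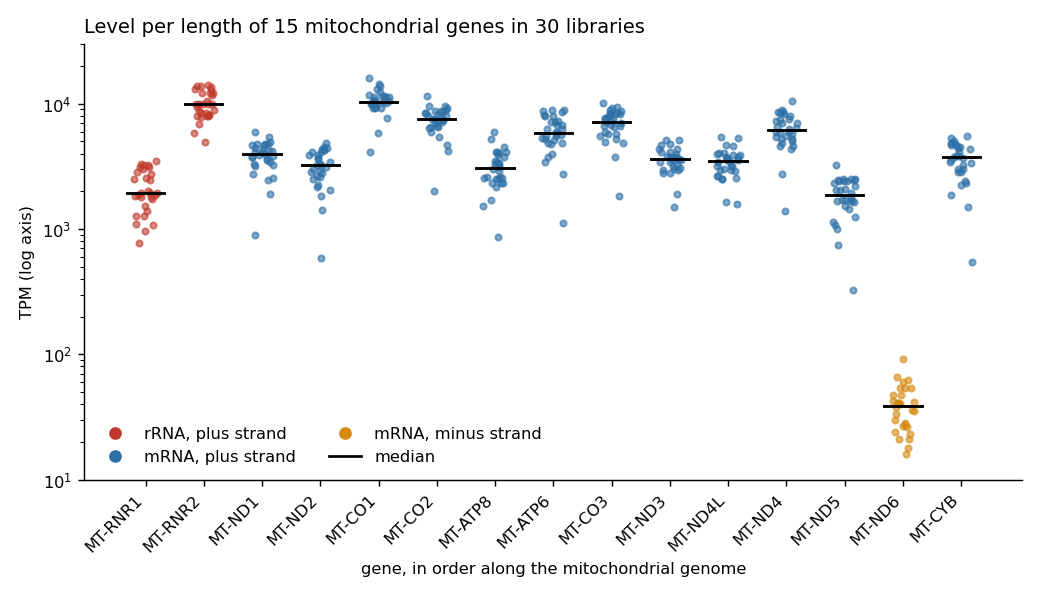
Level per length of the 13 mRNAs and both rRNAs in TPM on a log axis, in order along the mitochondrial genome, with 1 point for each of 30 libraries, a line at the median, and colours for rRNAs, plus-strand mRNAs and the minus-strand mRNA. MT-CO1 has the highest median, 10242 TPM, and MT-ND6, from 16.02 to 91.5 TPM, lies below all other mRNAs in every library.

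The genes also differed in how far they moved between libraries. The ratio of the highest to the lowest TPM over the 30 libraries was 10.3 for MT-CYB and 9.94 for MT-ND5, but 3.44 for MT-ND4L, 3.47 for MT-ND3 and 3.91 for MT-CO1. The lowest MT-ND4L level, 1588 TPM, was that of PD-1 replicate 1, and the lowest levels of the other 4 genes were those of PD-1/LAG3 replicate 3, where MT-CYB stood at 543 TPM against 3239 and 3344 TPM in the other replicates of that group. In this library MT-CO1 made up 41.8% of the mitochondrial mRNA counts, against a median of 29.3% over all libraries, and MT-CYB made up 4.001% against a median of 7.28%. It is a library that stood apart from its group also in nuclear genes.

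Mitochondrial mRNAs took between 1.09 and 5.50% of the counts of a library, and the 3 replicates of a group often spread widely. The shares in replicates 1 to 3 were 4.01, 2.55 and 4.16% in DSLB-free tumoroids, 4.24, 3.93 and 3.88% with plain DSLBs and 1.84, 3.01 and 3.06% with PD-1. All PD-1 libraries were therefore below all plain DSLB libraries, while the DSLB-free group spanned both. They were 4.18, 3.95 and 2.74% with PD-1/CD2, 4.75, 4.07 and 4.51% with PD-1/CD27, 3.59, 3.62 and 5.50% with PD-1/CD40L and 3.14, 4.57 and 2.94% with PD-1/CTLA4. The remaining groups had 3.98, 3.59 and 3.20% with PD-1/ICOS, 3.34, 3.41 and 1.09% with PD-1/LAG3 and 3.63, 3.31 and 3.47% with PD-1/TIGIT. The PD-1 group had the second lowest mean, 2.64% ± 0.690 (SD, n = 3), after PD-1/LAG3 with 2.61% ± 1.32 (SD, n = 3) and a lowest library of 1.09%. In 5 of the 9 comparisons the groups did not overlap, with PD-1 below plain DSLBs and PD-1/CD27, PD-1/CD40L, PD-1/ICOS and PD-1/TIGIT above PD-1. Each of these reached a two-sided exact permutation p of 0.1, which is the smallest that 3 against 3 libraries allow, and 0.18 after Benjamini-Hochberg adjustment over the 9 comparisons. The difference between PD-1 and plain DSLBs was -0.61 on the log2 scale and -0.41 without PD-1 replicate 1. In bulk RNA a lower share of mitochondrial RNA cannot be told apart from a higher amount of the other RNA in the library, nor fewer cells from less RNA per cell.

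The rRNA share showed a different grouping. Its values in replicates 1 to 3 were 0.804, 0.645 and 0.817% in DSLB-free tumoroids, 0.945, 0.850 and 0.851% with plain DSLBs and 0.813, 0.940 and 0.945% with PD-1, so that PD-1 and plain DSLB libraries overlapped. In PD-1/CD2, PD-1/CD27, PD-1/CD40L and PD-1/CTLA4 hybrids all 12 libraries lay between 1.26 and 1.59%, above the 0.620 to 1.14% of all 18 other libraries. These 4 groups were put together after the values were seen, and the split is given without a test. The means of these groups were 1.62, 1.69, 1.63 and 1.58 times that of PD-1 hybrids, against 1.17 times for PD-1/ICOS, 1.06 for PD-1/LAG3 and 1.13 for PD-1/TIGIT. In 7 of the 9 comparisons the groups did not overlap, with an exact permutation p of 0.1 and an adjusted p of 0.129. MALAT1, a noncoding RNA of the nucleus, also had its highest group means in these 4 groups, at 1222, 1101, 1041 and 1382 TPM. It was at 623 TPM with PD-1 and at 853 to 997 TPM with ICOS, LAG3 and TIGIT. Without PD-1 it was at 550.3 TPM with plain DSLBs and at 768 TPM in DSLB-free tumoroids. Its lowest PD-1/CD40L library, at 596 TPM, lay within the PD-1 range of 567 to 659 TPM. The share of nuclear genes that encode no protein was 1.94 to 2.04% in the means of these 4 groups, 1.77% with PD-1 and 1.95% in DSLB-free tumoroids. The part of either in the rRNA shares was not tested. Whether poly(A) RNA was selected or rRNA removed was not given in the sources read, and its part in these shares was not tested either. For the rRNA share the exceptions were PD-1 against plain DSLBs (exact p = 1, ratio of means 1.02) and PD-1/LAG3 against PD-1 (exact p = 0.8). The 95% Wilson intervals of the shares were at most 0.0191 percentage points wide for mRNAs and 0.0102 for rRNAs, and they cover counting error only, since reads without molecular identifiers are not independent molecules.

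**Figure D2:**
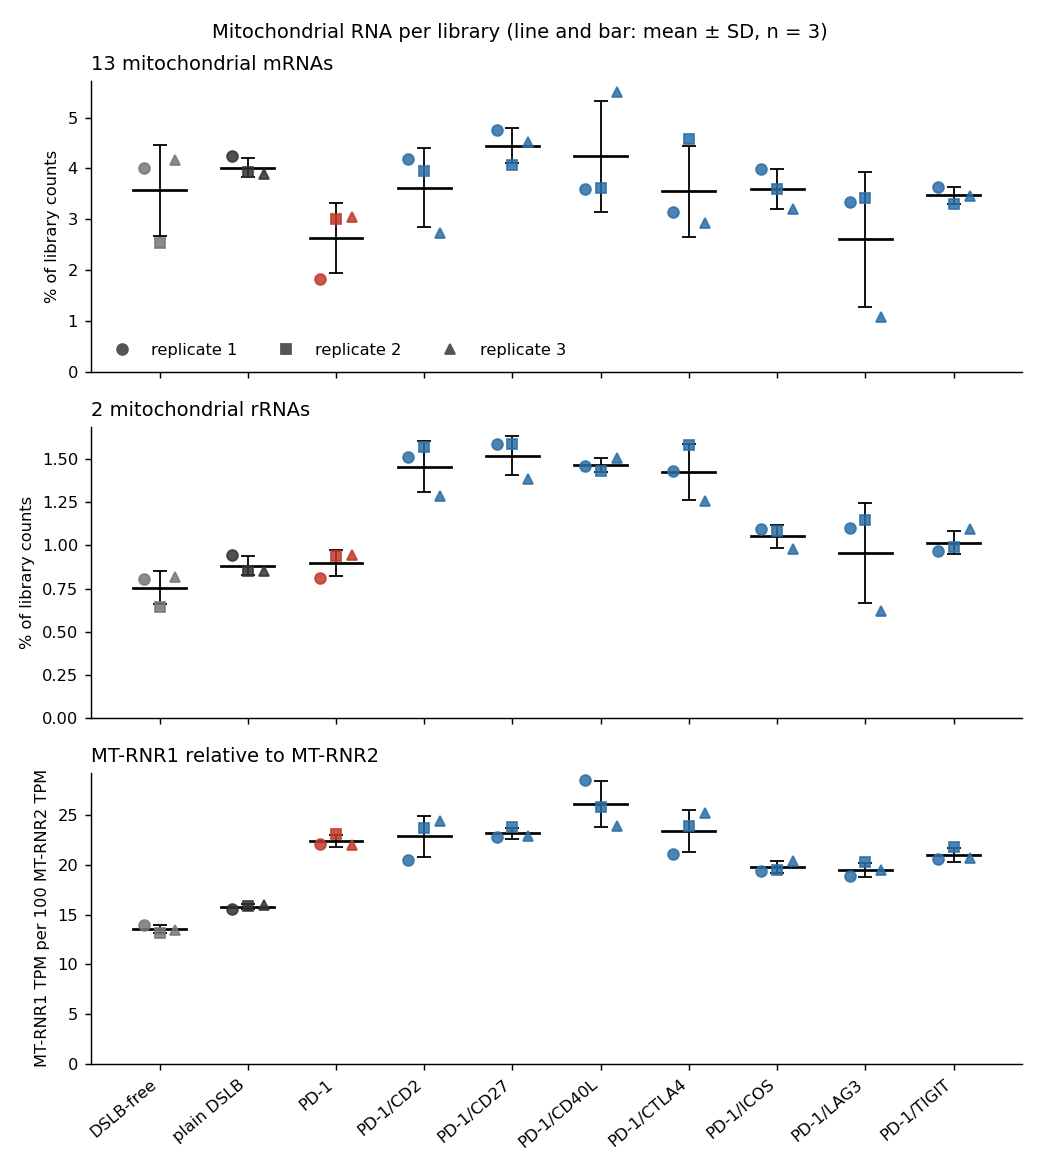
Share of each library's expected counts from mitochondrial mRNAs (top) and rRNAs (middle), in percent, and MT-RNR1 per 100 MT-RNR2 in TPM (bottom), for the 10 groups, with 1 marker per library, its shape giving the replicate, and a line and bar for the mean and SD of 3 replicates. The rRNA shares of PD-1/CD2, PD-1/CD27, PD-1/CD40L and PD-1/CTLA4 hybrids, 1.26 to 1.59%, lie above those of all other groups. The mRNA shares do not overlap in 5 of the 9 comparisons and overlap in the rest. The ratio lies at 13.2 to 15.98 in both groups without PD-1, which held no protein, and at 18.8 to 28.5 in the others.

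Single genes were tested with edgeR's quasi-likelihood test over 18424 genes, of which 16 were members, namely the 13 mRNAs, both rRNAs and MT-TL1. Calls are at a Benjamini-Hochberg adjusted p under 0.05, and levels are in CPM, counts scaled to a common depth, on libraries normalized by TMM. Since members are cut from shared precursors, numbers of members called or without overlap do not count independent genes. A test for any difference among the 10 groups called 5 of the 16 members, beside 41% of all genes tested. These were MT-RNR1 (adjusted p = 1.36e-09), MT-RNR2 (adjusted p = 4.05e-06), MT-ND6 (adjusted p = 0.000331), MT-ND4L (adjusted p = 0.0259) and MT-ATP8 (adjusted p = 0.0306). MT-ND3 (adjusted p = 0.0625) missed the threshold, and the other 9 mRNAs and MT-TL1 had adjusted p-values from 0.195 to 0.562. These 5 were a smaller part of the members than the 41% was of all genes. MT-ATP8 and MT-ND4L are the short genes that overlap the start of a longer one, MT-ATP6 and MT-ND4, and neither of these was called. Without the 4 libraries that stood apart 11 members were called, beside 49.4% of all genes, so that the number and kind of members called depended on these libraries.

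Plain DSLBs, compared with DSLB-free tumoroids to see what the droplet itself does, called 0 members, beside 0.0109% of all genes. At an unadjusted p under 0.05 there was 1 member, MT-RNR1, beside 1123 of 18424 genes. DESeq2 called 0 when fitted to all 30 libraries (0.0814% of all genes) and 1 when fitted to the 6 of the comparison (0.163%). MT-RNR1 was at 709, 724 and 783 CPM with plain DSLBs and at 449, 582 and 584 CPM without DSLBs. These groups did not overlap, with a log2 fold change of 0.46 (SE 0.15) and an adjusted p of 0.668 by edgeR. For the 13 mRNAs the median log2 fold change was 0.21, with values from -0.39 for MT-ND6 to 0.38 for MT-CYB, beside a median of 0.00 over all genes. Groups without overlap were found for 5 members with plain DSLBs higher, beside 6.91% of all genes.

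PD-1 on the droplets, compared with plain DSLBs, called 4 of the 16 members, beside 22% of all genes (11.3% higher and 10.7% lower). By edgeR the part of the members called was thus near that of all genes. MT-ND6, MT-ATP8 and MT-ND4L fell and MT-RNR1 rose. DESeq2, fitted to all 30 libraries, called 7 members and 22.7% of all genes. MT-ND6 stood at 5.01, 5.75 and 6.65 CPM with PD-1 and at 12.2, 13.8 and 15.6 CPM with plain DSLBs. All PD-1 libraries were below all plain DSLB libraries, with a log2 fold change of -1.26 (SE 0.27, adjusted p = 0.00163 by edgeR). MT-ATP8 stood at 146.1, 159.0 and 216.9 CPM against 322, 352 and 358 CPM (log2 fold change -0.98, SE 0.30, adjusted p = 0.0237 by edgeR). MT-ND4L stood at 255, 389 and 412 CPM against 560.0, 566 and 571 CPM (log2 fold change -0.68, SE 0.23, adjusted p = 0.0327 by edgeR). In both genes the plain DSLB libraries lay close together, the PD-1 libraries spread more widely, and the groups did not overlap. MT-RNR1 moved the other way, from 709, 724 and 783 CPM with plain DSLBs to 964, 1090.3 and 1146 CPM in the PD-1 libraries, a log2 fold change of 0.53 (SE 0.15, adjusted p = 0.0104 by edgeR).

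All 13 mRNAs had a negative log2 fold change in this comparison, from -1.26 to -0.20 with a median of -0.68, beside a median of 0.00 over all genes. In 12 of them the groups did not overlap, as for MT-TL1, which makes 13 of the 16 members beside 23.5% of all genes, and MT-CO1 was the mRNA that overlapped. Most of them missed the threshold, and their PD-1 libraries spread widely. MT-CYB stood at 1148, 2122 and 2123 CPM against 3304, 3349 and 3586 CPM (log2 fold change -0.92, SE 0.43, adjusted p = 0.131 by edgeR). MT-ATP6 gave -0.89 (adjusted p = 0.106), MT-ND2 -0.86 (adjusted p = 0.127), MT-ND5 -0.71 (adjusted p = 0.262), MT-ND4 -0.67 (adjusted p = 0.181) and MT-CO3 -0.65 (adjusted p = 0.133). The smallest differences were those of MT-ND1 with -0.49, MT-CO2 with -0.41, MT-CO1 with -0.24 and MT-ND3 with -0.20. MT-RNR2, at 7377, 8372 and 8388 CPM against 7537, 7637 and 8473 CPM, had a log2 fold change of 0.03 (SE 0.14, adjusted p = 0.911 by edgeR), and the groups overlapped.

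The calls of MT-ND4L and MT-ATP8 were near the threshold and were lost when single libraries were left out. Without PD-1 replicate 1, the library with the lowest mRNA share of its group, MT-ND4L had an adjusted p of 0.149 and MT-ATP8 of 0.0924. MT-ND4L also lost its call without plain DSLB replicate 1, 2 or 3 (adjusted p from 0.0712 to 0.0756), and MT-ATP8 without plain DSLB replicate 2 (0.0590), plain DSLB replicate 3 (0.0617) or PD-1 replicate 2 (0.0774). Without the 4 libraries that stood apart 6 members were called, beside 21.1% of all genes, with MT-ND6 at -1.26 (adjusted p = 0.00832) and MT-RNR1 at 0.60 (adjusted p = 1.19e-05). MT-ATP8 at -0.87, MT-CYB at -0.69, MT-ATP6 at -0.67 and MT-CO3 at -0.49 were called in that fit and MT-ND4L, with an adjusted p of 0.0633, was not. MT-ND6 kept its call under all 17 alternatives, with log2 fold changes from -1.38 to -1.16.

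**Figure D3:**
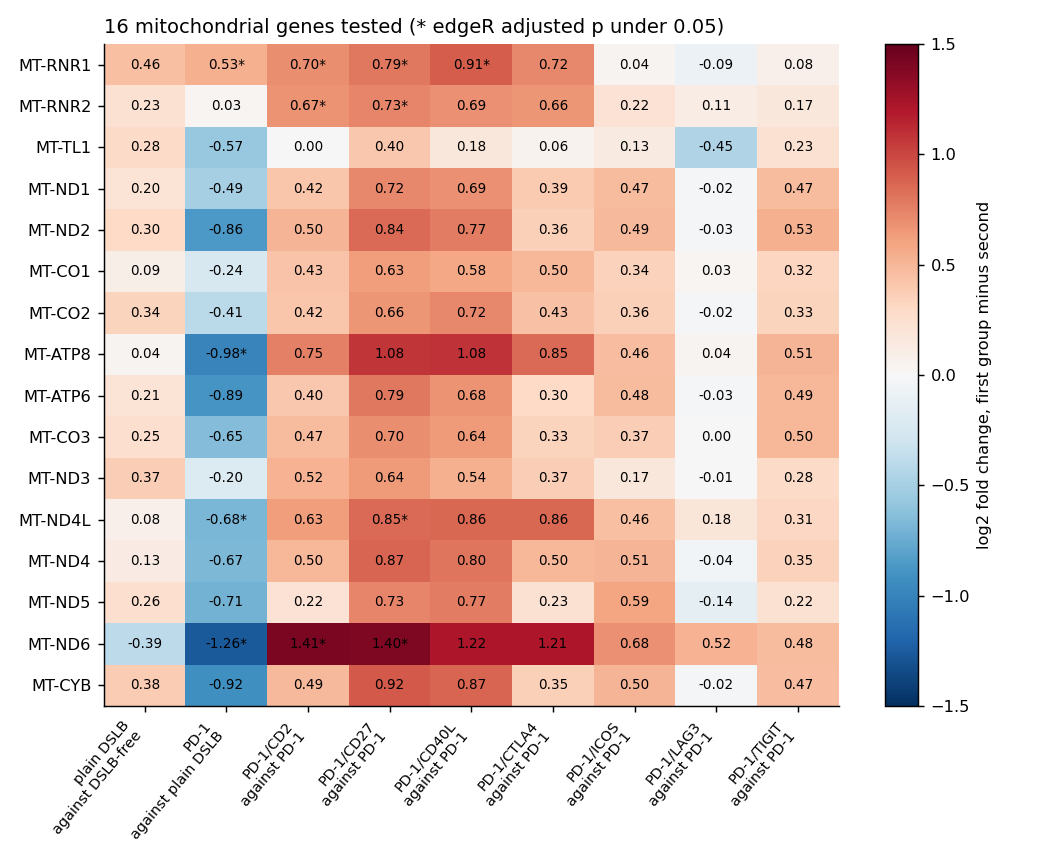
Heat map of the log2 fold change by edgeR of the 16 tested members (rows) in the 9 comparisons (columns), red where the first-named group was higher and blue where it was lower, with the value in each cell and a star for an adjusted p under 0.05. In PD-1 against plain DSLBs all 13 mRNAs lie below 0 and MT-RNR1 above it, and in PD-1/CD2, PD-1/CD27, PD-1/CD40L and PD-1/CTLA4 against PD-1 all 13 mRNAs and both rRNAs lie above 0.

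Each co-presented molecule was compared with PD-1 alone, and all 7 comparisons use the same 3 PD-1 libraries, so their values are not independent of each other. The PD-1 libraries entered at 5.01, 5.75 and 6.65 CPM for MT-ND6, at 964, 1090.3 and 1146 CPM for MT-RNR1 and at 7377, 8372 and 8388 CPM for MT-RNR2. Adding CD2 called 3 members, beside 1.23% of all genes (0.733% higher), and all rose. MT-ND6 reached 12.1, 13.2 and 21.1 CPM (log2 fold change 1.41, SE 0.26, adjusted p = 0.0131 by edgeR). MT-RNR1 reached 1599.8, 1642 and 1959 CPM (0.70, SE 0.15, adjusted p = 0.0200) and MT-RNR2 11043, 13495 and 13959 CPM (0.67, SE 0.14, adjusted p = 0.0200). None of the 3 genes overlapped with PD-1 in any library. The median log2 fold change of the 13 mRNAs was 0.49, beside -0.01 over all genes, and 7 members did not overlap, beside 8.11% of all genes in that direction. No member was called without PD-1 replicate 1 (adjusted p from 0.0743 to 0.113 for the 3 genes), PD-1 replicate 2 (0.0738 to 0.0863) or PD-1/CD2 replicate 3 (0.0518 to 0.0882). With those that stood apart left out all 3 were called, beside 1.38% of all genes, with adjusted p-values of 0.0353 for MT-ND6, 0.00439 for MT-RNR2 and 0.00105 for MT-RNR1. That fit kept every PD-1/CD2 library, replicate 3 among them.

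Adding CD27 called 4 members, beside 2.29% of all genes (2.05% higher), and all rose. DESeq2, fitted to all 30 libraries, called 5 members and 4.25% of all genes. MT-RNR1 stood at 1657, 1894 and 1969 CPM (log2 fold change 0.79, SE 0.15, adjusted p = 0.00572 by edgeR). MT-RNR2 stood at 12195, 13952 and 14012 CPM (0.73, SE 0.14, adjusted p = 0.00728). MT-ND6 stood at 12.8, 16.2 and 16.4 CPM (1.40, SE 0.27, adjusted p = 0.00774). MT-ND4L, at 579, 620.4 and 701 CPM, was just inside the threshold (0.85, SE 0.23, adjusted p = 0.0491), and MT-ATP8 just outside (1.08, adjusted p = 0.0639). The lowest PD-1/CD27 library was above the highest PD-1 library for 15 of the 16 members, beside 13.5% of all genes in that direction, and the exception was MT-TL1. The members are not independent of each other, so this is not 15 separate results. The median log2 fold change of the mRNAs was 0.79, and 10 of them had an unadjusted p under 0.05, beside 3134 of the 18424 genes. No member was called without PD-1 replicate 1 (adjusted p from 0.0747 to 0.293), and 2 members were called without PD-1/CD27 replicate 1, where MT-RNR2 had an adjusted p of 0.0518 and MT-ND4L of 0.192. With those that stood apart left out 2 were called, MT-RNR1 and MT-RNR2, beside 0.296% of all genes. MT-ND4L was outside the threshold also without PD-1 replicate 2 (0.0923), PD-1/CD27 replicate 2 (0.0516) and PD-1/CD27 replicate 3 (0.156).

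Adding CD40L called 1 member, beside 0.0109% of all genes, which was MT-RNR1 at 1898, 1933 and 2164 CPM (log2 fold change 0.91, SE 0.15, adjusted p = 0.0185 by edgeR). MT-RNR2 at 12636, 12809 and 13388 CPM gave 0.69 (adjusted p = 0.0673) and MT-ND6 at 9.63, 11.96 and 19.4 CPM gave 1.22 (adjusted p = 0.0853). For 15 of the 16 members the groups did not overlap, beside 8.9% of all genes in that direction, and the median of the mRNAs was 0.77. The call of MT-RNR1 was lost without PD-1 replicate 1 (adjusted p = 0.337) or PD-1 replicate 2 (adjusted p = 0.0764), and 2 members were called without PD-1/CD40L replicate 1. With those that stood apart left out MT-RNR1 and MT-RNR2 were called, beside 0.0162% of all genes, the latter with an adjusted p of 0.00317.

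Adding CTLA4 called 0 members by edgeR, beside 0.0434% of all genes. At an unadjusted p under 0.05 there were 4 mRNAs and both rRNAs, beside 2445 of the 18424 genes. DESeq2 called 4 members when fitted to all 30 libraries (0.467% of all genes) and 6 when fitted to the 6 of the comparison (0.749%). MT-RNR1 stood at 1622, 1651 and 1989 CPM (log2 fold change 0.72, SE 0.15, adjusted p = 0.0774 by edgeR). MT-RNR2 stood at 11034, 12993 and 14045 CPM (0.66, adjusted p = 0.119) and MT-ND6 at 11.9, 12.5 and 15.8 CPM (1.21, adjusted p = 0.119). These values lay above all PD-1 libraries, as for 7 members in all, beside 9.21% of all genes. Without the libraries that stood apart 3 members were called, beside 6.45% of all genes.

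With ICOS, LAG3 and TIGIT edgeR called 0 members and, in each, 0% of all genes. With ICOS MT-ND6 alone had an unadjusted p under 0.05 (log2 fold change 0.68, adjusted p = 0.410 by edgeR), beside 1880 of the 18424 genes. DESeq2 called 0 members from all 30 libraries (0.0163% of all genes) and 2 from the 6 of the comparison (4.66%). With TIGIT no member had an unadjusted p under 0.05, beside 681 genes, and DESeq2 called 0 (0.00543% of all genes) and 1 (0.174%). With LAG3 no member did, beside 1052 genes, and DESeq2 called 0 in both (0.0271% of all genes in each). The 13 mRNAs had positive log2 fold changes with ICOS (median 0.47) and TIGIT (median 0.47), whereas 5 were positive and 8 negative with LAG3 (median -0.02). Groups without overlap and higher than PD-1 were seen for 9 members with ICOS, beside 12.6% of all genes, for 12 with TIGIT, beside 6.25%, and for 1 with LAG3, beside 6.14%. MT-RNR1 was near the PD-1 level in all 3, with log2 fold changes of 0.04, -0.09 and 0.08 for ICOS, LAG3 and TIGIT. Without PD-1/LAG3 replicate 3 the log2 ratio of the mRNA share to PD-1 was 0.36 in place of -0.01.

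When plain DSLBs were the reference in place of PD-1, both rRNAs were called for CD2, CD27, CD40L and CTLA4, with log2 fold changes of MT-RNR1 from 1.23 to 1.44 and of MT-RNR2 from 0.69 to 0.76, and no mRNA was called there. These fits called 29.6, 23.8, 25.5 and 34.2% of all genes. In these fits and in those of the other molecules, a smaller part of the members than of all genes was called. With ICOS MT-RNR1 was called at 0.57 (19.6% of all genes), with TIGIT MT-RNR1 at 0.61 and MT-ND6 at -0.78 (22.5%), and with LAG3 MT-RNR1 at 0.45, MT-ND6 at -0.74, MT-ATP8 at -0.94 and MT-TL1 at -1.02 (30.3%).

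The small and large rRNA genes lie next to each other on the same strand, yet the ratio of their measured levels differed between groups. A poly(A) or rRNA step was not given in the sources read. Its part in this ratio, and in that of rRNA to mRNA, was not tested. MT-RNR1 per 100 MT-RNR2, both in TPM, was 13.9, 13.2 and 13.4 in DSLB-free tumoroids, 15.58, 15.86 and 15.98 with plain DSLBs and 22.04, 23.04 and 21.96 with PD-1. The 3 groups did not overlap, each step with an exact permutation p of 0.1, the smallest possible, and an adjusted p of 0.15. The ratio was 20.5, 23.7 and 24.4 with PD-1/CD2, 22.8, 23.8 and 22.9 with PD-1/CD27, 28.5, 25.8 and 23.9 with PD-1/CD40L and 21.0, 23.9 and 25.2 with PD-1/CTLA4. It was 19.4, 19.5 and 20.4 with PD-1/ICOS, 18.8, 20.2 and 19.5 with PD-1/LAG3 and 20.5, 21.8 and 20.7 with PD-1/TIGIT. All 24 libraries with PD-1 thus lay between 18.8 and 28.5 and the 6 without between 13.2 and 15.98. This split was chosen after the values were seen and is given without a test. The libraries with PD-1 are also all those with protein on the droplets, so PD-1 and protein as such cannot be told apart. PD-1/LAG3 replicate 3 and PD-1 replicate 1, which stood apart in their levels, did not stand apart in this ratio.

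The ratio of summed rRNA to summed mRNA in TPM was 0.118 to 0.157 in the 6 libraries without PD-1 and 0.168 to 0.354 in the 24 with it, the highest being PD-1/LAG3 replicate 3. It rose from 0.135 ± 0.00279 (SD, n = 3) with plain DSLBs to 0.227 ± 0.0419 (SD, n = 3) with PD-1, without overlap, at an exact permutation p of 0.1 and an adjusted p of 0.45. PD-1/TIGIT at 0.187 ± 0.0163 (SD, n = 3) was below PD-1 without overlap (exact p = 0.1), and the other 6 co-presented molecules overlapped with PD-1.

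MT-ND6 was also set against the other 12 mRNAs of its library, a ratio that does not depend on the scaling between libraries. It was counted with 228 to 1447 reads per library. Per 10000 counts of the other mRNAs it had 4.26, 5.12 and 6.36 counts in DSLB-free tumoroids, 2.93, 3.61 and 4.09 with plain DSLBs and 3.05, 1.64 and 2.17 with PD-1. Plain DSLBs were below DSLB-free tumoroids in all libraries (difference of log2 ratios -0.56, exact permutation p = 0.1), and PD-1 overlapped with plain DSLBs in 1 library (-0.67, exact p = 0.2). With PD-1/CD2 it had 2.89, 3.29 and 7.85, with PD-1/CD27 3.39, 3.13 and 3.65, with PD-1/CD40L 2.61, 3.24 and 3.47 and with PD-1/CTLA4 4.92, 2.70 and 4.01 counts. PD-1/CD27 did not overlap with PD-1 (difference 0.61, exact p = 0.1), and the differences of the other 3 were 0.93, 0.48 and 0.77, each with an exact p of 0.2. With PD-1/ICOS it had 2.73, 2.80 and 2.26, with PD-1/LAG3 2.41, 2.63 and 6.64 and with PD-1/TIGIT 2.30, 2.53 and 2.11 counts, and these overlapped with PD-1. After adjustment over the 9 comparisons no p was below 0.3. The high values of PD-1/CD2 replicate 3 and PD-1/LAG3 replicate 3 came from the libraries with the lowest mRNA share of their groups, and without them the differences were 0.48 for PD-1/CD2 and 0.19 for PD-1/LAG3.

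**Figure D4:**
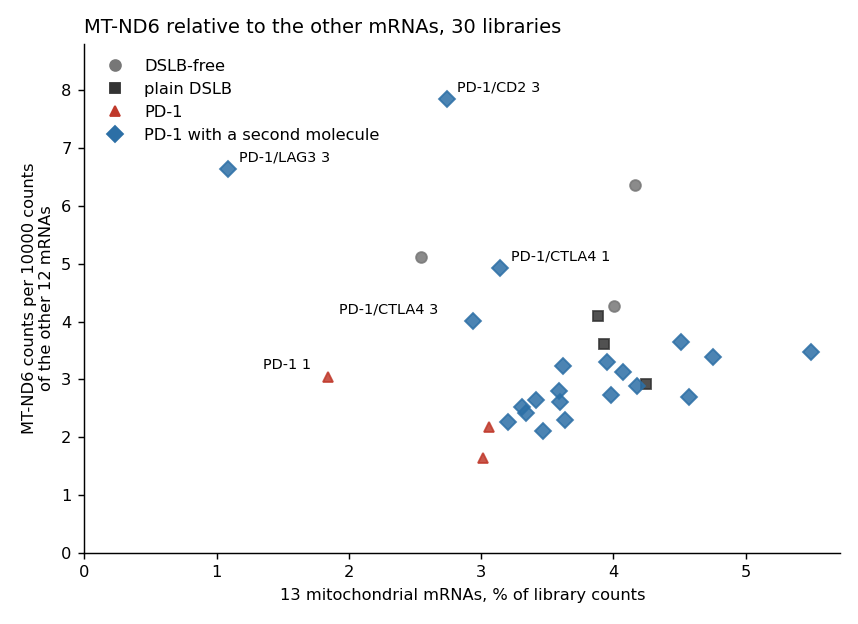
Counts of MT-ND6 per 10000 counts of the other 12 mitochondrial mRNAs (vertical axis) against the share of the 13 mRNAs in the library's counts in percent (horizontal axis), with 1 marker for each of 30 libraries and 5 libraries named by group and replicate. DSLB-free tumoroids lie at 4.26 to 6.36 and PD-1 hybrids at 1.64 to 3.05, and PD-1/CD2 replicate 3 (7.85) and PD-1/LAG3 replicate 3 (6.64) lie highest.

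Nuclear genes of mitochondrial function were read from lists, each given by its counts beside the share of all genes called. Between PD-1 and plain DSLBs, where 11.3% of all genes rose and 10.7% fell, 34 of 81 tested nuclear subunits of the respiratory chain and ATP synthase rose and 0 fell. Their median log2 fold change was 0.31, beside 0.00 over all genes, while all 13 mitochondrial mRNAs had negative values. ATP5F1C, a subunit of ATP synthase, was at 104 CPM with PD-1 and 68.7 CPM with plain DSLBs (log2 fold change 0.59, adjusted p = 3.79e-06 by edgeR). The complex I subunits NDUFS4 and NDUFA9 changed by 0.50 and 0.47, and COX7B of cytochrome c oxidase by 0.54. Of the 14 genes of mitochondrial transcription and DNA maintenance 3 were called, beside 22% of all genes. TFB1M, an rRNA methyltransferase, rose by 0.26, and TWNK, the mitochondrial helicase, and MGME1, a nuclease, fell by 0.24 and 0.22. Of the 25 genes of RNA processing 1 was called, fewer than the share of all genes, and it was FASTKD5, which acts in the maturation of mRNAs without a flanking tRNA and fell by 0.29. Of 6 regulators of mitochondrial biogenesis 2 fell, NRF1 by 0.27 and PPARGC1A from 1.62 ± 0.0724 to 0.473 ± 0.195 CPM (SD, n = 3, adjusted p = 0.000729 by edgeR).

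Few genes of these lists were called when molecules were added to PD-1. With CD2, where 1.23% of all genes were called, the respiratory chain subunit NDUFA5 rose by 0.29 and the regulator PPRC1 fell by 0.28. With CD27, where 2.29% were called, MTERF2, 1 of the 14 genes of transcription, rose by 0.38 and FASTKD1, 1 of the 25 of RNA processing, by 0.29. In the other 5 comparisons with PD-1, and in plain DSLBs against DSLB-free tumoroids, 0 of these nuclear genes were called by edgeR, which in those comparisons called at most 0.0434% of all genes. The respiratory chain subunits had medians of -0.16 with CD27, -0.12 with CD40L, -0.17 with ICOS and -0.02 with CD2. Their medians were 0.03 with CTLA4, 0.04 with TIGIT and 0.13 with LAG3. The mitochondrial mRNAs had medians of 0.79, 0.77, 0.47, 0.49, 0.39, 0.47 and -0.02 in the same order. Over all genes the medians lay from -0.01 to 0.01.

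Over the 30 libraries the mRNA share was set against 5 other measures of the library. With the rRNA share, which has the same denominator, Pearson's r was 0.561 (permutation p = 0.00083, adjusted 0.00138) and Spearman's rho 0.471 (permutation p = 0.00974, adjusted 0.0162). It was 0.518 without the 2 libraries farthest from the median and 0.811 after group means were taken out. With the tRNA share r was 0.822 (rho 0.753) and within groups 0.852. With the summed counts r was -0.22 (permutation p = 0.245), and with the share of nuclear genes that do not encode a protein it was 0.367 and, within groups, 0.00. Nuclear copies of mitochondrial genes, pseudogenes such as MTATP6P1 that are near-identical to a member, took 1.17 to 1.96 counts per 100 mitochondrial counts, and their share moved with the mRNA share at an r of 0.896 (rho 0.867). The split of reads between members and these copies, of which 136 of 390 had a count, was made by the authors' counting, and its part in the values above was not tested.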

How the data were processed

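PANC-1 RNA from 30 cultures was sequenced in single-end reads of 75 nt, and the sample labels gave groups and replicate numbers. Reads were checked (FastQC 0.11.2), processed with SAMtools 1.3.1, trimmed (Trim Galore 0.3.3), aligned by STAR to hg38 and quantified by RSEM, per the labels' processing notes and the methods. A poly(A) or rRNA step, the annotation used and the strand setting were not given in the sources read. The deposited expected counts are the authors' estimated counts per gene, without normalization, and TPM, also deposited, scales them by effective length and depth. The posterior standard deviation of each count, also deposited by the authors, is a measure of how reads shared between genes were split, and it was at most 0.289% of a member's count.

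Expected counts were rounded, filtered by group with filterByExpr, scaled by TMM and tested with edgeR 4.0.16 (quasi-likelihood, robust) in 1 model of the 30 libraries, adjusted by Benjamini-Hochberg over 18424 genes, at a threshold of 0.05. Shares and ratios per library were compared with two-sided exact permutation tests. Alternatives used DESeq2 1.42.0 and limma 3.58.1 in R 4.3.3, tables and figures used pandas 2.3.3, numpy 2.4.6, scipy 1.17.1 and matplotlib 3.10.9 in Python 3.11.15, and the test was tried on simulated data. Gene identifiers were matched to symbols for 56321 records and not for 4162. All members and every tested gene are reported by the rule that each mRNA and rRNA is named, tRNAs if they passed the filter, and nuclear genes if they passed the test, up to 4 per list and comparison by smallest p-value. The choice of mitochondrial genes as the subject, and the gene lists, were made with earlier results of these data known. The biological coefficient of variation common to all genes tested was 0.0942, at a depth of 21.9 to 60.5 M counts. The simulated data used this value for every gene, so they do not show the precision for the members. Within groups the SD of log2 TPM of members ranged from 0.234 for MT-RNR1 to 0.616 for MT-CYB. No 2 replicates of a group agreed within sampling noise. Leaving out the 4 libraries that stood apart was chosen after seeing the data.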

Additional observations from a re-analysis of the deposited data

How the results depend on the processing

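The number of members called depended on the filter on low counts, on the tool and on single libraries, and the causes were not tested. With RLE factors, or with mitochondrial genes left out of the library size, no count moved. The share of all genes called stands in brackets. Without a filter on low counts 27 members of 39960 genes were tested, and the calls were 4 (0.498%) in plain DSLBs against DSLB-free, 12 (10.1%) in PD-1 against plain DSLB, and, against PD-1, 14 (2.07%) with CD2, 15 (3.23%) with CD27, 15 (1.20%) with CD40L, 13 (1.75%) with CTLA4, 11 (1.11%) with ICOS, 1 (0.721%) with LAG3 and 7 (0.315%) with TIGIT, and 16 (22.4%) for any of the 10 groups. DESeq2 in a model of all libraries called 7 (22.7%) in PD-1 against plain DSLB, 5 (0.597%) with CD40L and 4 (0.467%) with CTLA4. On the 6 libraries compared it called 1 (0.163%) in plain DSLBs against DSLB-free, 10 (28.2%) in PD-1 against plain DSLB, 6 (0.575%) with CD2, 14 (7.65%) with CD27, 5 (0.879%) with CD40L, 6 (0.749%) with CTLA4, 2 (4.66%) with ICOS and 1 (0.174%) with TIGIT. On the 6 libraries edgeR called 0 (0.0352%) with CD2, 2 (0.0239%) with CD40L and 2 (0.0469%) with CTLA4. On log2(TPM + 1) and log2(TPM + 0.1) limma called 1 with CD2 (0.0434 and 0.0489%), and without a filter on low values it called 0 (0.0249%) with CD2, 1 (0.142%) with CD27 and 0 (0.00498%) with CD40L. MT-RNR1 in PD-1 against plain DSLB lost its call in these limma fits (adjusted p from 0.116 to 0.235). With plain DSLBs as the reference the calls were 2 (23.8%) with CD27, 2 (25.5%) with CD40L, 2 (34.2%) with CTLA4, 1 (19.6%) with ICOS, 4 (30.3%) with LAG3 and 2 (22.5%) with TIGIT. Without the libraries that stood apart they were 2 (0.296%) with CD27, 2 (0.0162%) with CD40L, 3 (6.45%) with CTLA4 and 11 (49.4%) for any group. Leaving out 1 library at a time gave 0 to 0 calls in plain DSLBs against DSLB-free, 2 to 4 in PD-1 against plain DSLB, 0 to 3 with CD2, 0 to 4 with CD27, 0 to 2 with CD40L, and 0 to 0 with CTLA4, ICOS, LAG3 and TIGIT. Libraries left out were not tried for the test of any group.

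Over the alternatives, called members kept their call 156 times, lost it 56 times and changed sign 0 times. Shares and the MT-ND6 ratio kept their sign 232 times and changed it 20 times. The differences that changed sign are given as log2 ratios with 1 library left out, lowest to highest. For the mRNA share these were -0.023 (without DSLB-free replicate 2) to 0.295 in plain DSLB against DSLB-free, and -0.252 to 0.357 (without PD-1/LAG3 replicate 3, and 0.0938 and 0.107 without PD-1 replicates 2 and 3) for LAG3. For the rRNA share they were -0.0082 to 0.0959 in PD-1 against plain DSLB, which also changed sign with TPM (-0.0202), and -0.0661 to 0.318 for LAG3. For the tRNA share they were -0.118 to 0.198 with CD2, -0.0525 to 0.410 with CD40L, -0.0956 to 0.261 with CTLA4 (-0.0096 with TPM), -0.160 to 0.221 with ICOS and -0.01 to 0.299 with TIGIT. For the MT-ND6 ratio they were -0.156 to 0.290 with TIGIT.

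The replicates were made in parallel, per the methods, but no source read says that a replicate number marks a shared set, and the numbers were not taken as pairs. Same-numbered libraries deviated together (r above 0.1) in 5 of 27 pairs, with r from -0.24 to 0.31, and in 0 comparisons for all 3 pairs. With the replicate block 4 members were called in PD-1 against plain DSLB, 3 with CD2, 3 with CD27, 1 with CD40L, 0 in the other comparisons and 5 for any group, and MT-ND4L with CD27 had an adjusted p of 0.0617.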
